A study of Mus musculus with 20 samples.

Results

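PaS cells are mesenchymal stromal cells of the bone marrow that carry both PDGFRα and Sca1 on their surface. The measurements described here compare, gene by gene, PaS cells of mice with a floxed Ebf1 gene (ko) and of mice with the wild-type gene (wt). Of the 20 samples of the study, 12 are RNA libraries and 6 of those are PaS libraries, 3 from each genotype. The wt libraries came from Ebf1+/+;Prx1+/cre mice and the ko libraries from Ebf1fl/fl;Prx1+/cre mice, both on the C57BL/6 background. Both groups thus carry the Prx1-cre transgene, whose promoter is active in limb bud mesenchyme, so the control is a Cre-positive one, and the promoter is known for the mesenchymal lineage and not for blood cells. Cells were obtained from crushed femora and tibiae by collagenase and DNase digestion, and were sorted as CD45-CD31-Lin-PDGFRα+Sca1+. The same gates without Sca1 gave CAR cells (CXCL12-abundant reticular cells), whose 6 libraries share the fit and serve here only to test where the PaS response differs. The labels used here give no age or sex and do not say whether replicates were separate animals, so the p-values below measure the spread between the libraries only. Levels are given as FPKM, which scales the fragments of a gene to its transcript length and to the library. Of 24347 gene symbols, 12378 reached 1 FPKM in at least 3 of the 6 PaS libraries and were tested on the log2(FPKM + 1) scale, and 5043 were at 0 in all 6.

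EBF1 is a zinc-finger transcription factor of the early B cell factor family. It is best known for committing lymphoid progenitors to the B cell lineage, and it is also made by marrow stromal cells and adipocyte precursors. PaS cells lie around arterioles and along the endosteum, and in culture they can form bone, cartilage and fat. They overlap in expression with the adventitial fibroblasts of other tissues, and, like CAR cells, they are part of the surroundings in which blood stem cells live.

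The 6 libraries were of even size on this scale, with 12200 to 12295 genes at 1 FPKM or more, although the first wt replicate listed 24.6% of genes at 0 and the other 5 listed 33.3% to 36.2%. The sorting markers were present in every library. Pdgfra, the PDGF receptor of the gate, was at 143, 149 and 136 FPKM in the wt libraries and 111, 107 and 116 FPKM in the ko libraries. It was lower in ko cells with no overlap (log2 change -0.36 with SE 0.07, adjusted p = 0.0026). Ly6a, which encodes Sca1, was at 1972, 1740 and 2176 FPKM in the wt libraries and 1539, 1524 and 1590 FPKM in the ko libraries. Its groups did not overlap either, but the difference did not pass the test (log2 fold change -0.33, SE 0.15, adjusted p = 0.23), and it passed when the PaS libraries were fitted alone (adjusted p = 0.012). The genes behind the negative gates were low and not at 0: Ptprc (CD45) lay between 8.42 and 14.8 FPKM and Pecam1 (CD31) between 4.001 and 6.14 FPKM, while Cd3e of T cells stayed at or under 0.470 FPKM. Genes of 6 blood cell lists, 118 in all, held 6.14% to 6.49% of the summed FPKM in wt libraries and 2.84% to 2.94% in ko libraries.

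The Ebf1 transcript was not lower in the ko libraries. Its level was 55.00, 62.1 and 50.5 FPKM in the wt libraries and 64.96, 61.9 and 60.7 FPKM in the ko libraries, and the ranges of both groups overlapped (exact two-sided permutation test p = 0.3, where 0.1 is the smallest p that 3 against 3 libraries can give). In the fit its log2 fold change was 0.16 (SE 0.08, adjusted p = 0.24). A value over a whole gene includes exons that a conditional deletion may leave in place, so it does not check the genotype, and values by exon were not analysed here. The relatives Ebf2 and Ebf3 were not called. Ebf2 was at 30.3, 30.8 and 36.1 FPKM in the wt libraries and 25.9, 23.1 and 25.8 FPKM in the ko libraries, lower without overlap but with adjusted p = 0.079, and it was called when only PaS libraries were fitted (0.041) or with a pseudocount of 5 (0.029). Ebf3, at 6.08 to 9.69 FPKM over the 6 libraries, gave a log2 fold change of 0.19 (adjusted p = 0.55). Prrx1, whose promoter drives the Cre, was at 37.4, 46.2 and 34.2 FPKM in the wt libraries and 39.8, 39.6 and 39.96 FPKM in the ko libraries, and its groups overlapped.

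Across all tested genes, 997 (8.05%) differed between ko and wt PaS cells at an adjusted p under 0.05, 466 higher (3.76%) and 531 lower (4.29%) in ko cells. These shares are the background for the counts by gene group below. Most differences were small: 218 of the 997 exceeded 2-fold on the log2(FPKM + 1) scale, 75 upward and 143 downward. The median log2 fold change of all tested genes was 0.00. The libraries of both groups did not overlap in 2957 genes (23.9% of those tested), which included 991 of the 997. Cfd, Car4 and Msmp had the largest rises and Pf4 the largest fall among the called genes, as the plot of all tested genes shows.

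**Figure D1:**
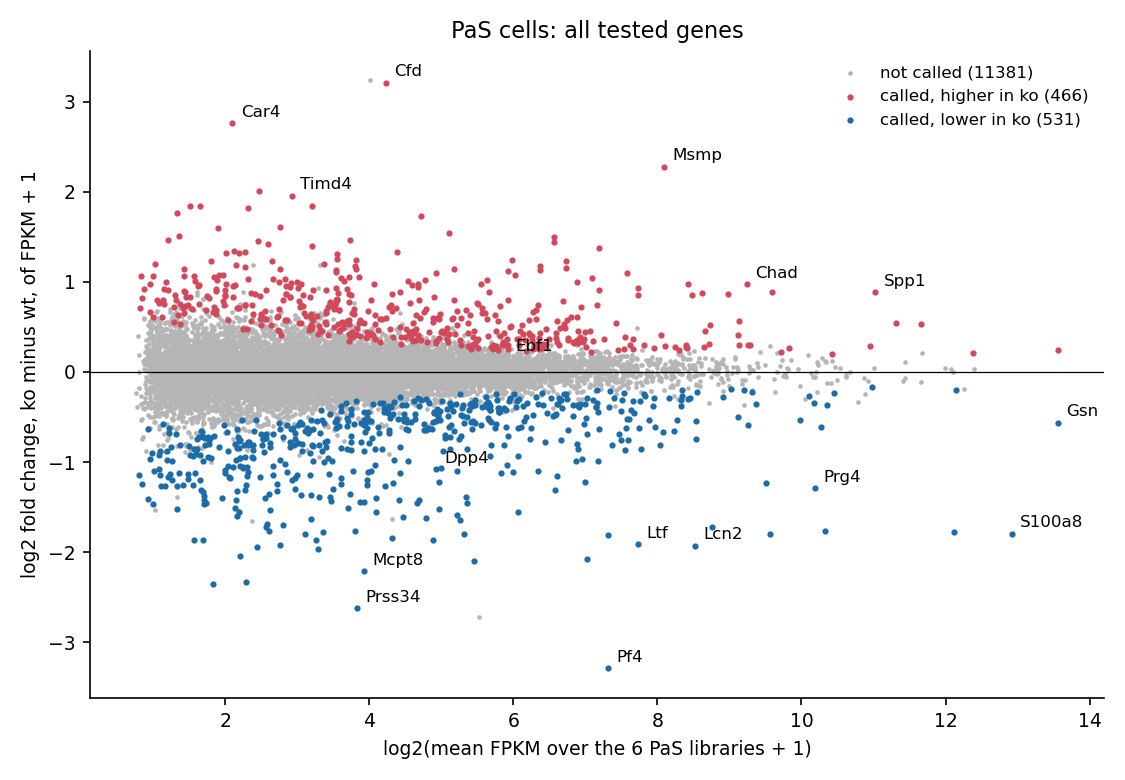
Each point is 1 of the 12378 tested genes, with the mean level over the 6 PaS libraries on the x axis (log2(FPKM + 1)) and the log2 fold change, ko minus wt, on the y axis. Red points are the 466 genes called higher in ko cells, blue points the 531 called lower, and grey points were not called. Cfd and Car4 stand highest among the called genes and Pf4 lowest, while S100a8, Prg4 and Gsn are abundant genes that fell.

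Most genes of cartilage matrix rose in ko PaS cells. Of 27 listed genes 23 were tested, and 20 were called higher and 0 lower, against 3.76% and 4.29% of all tested genes. Their median log2 fold change was 1.07, against 0.00 for all tested genes. Otor passed the filter only through the ko libraries. The largest rise was that of Matn3, a matrilin of growth plate cartilage, at 1.36, 0.884 and 1.30 FPKM in the wt libraries and 6.10, 8.47 and 9.04 FPKM in the ko libraries. Every ko library was above every wt library (log2 change 2.02 with SE 0.16, adjusted p = 3.8e-07). Col9a3, a chain of the collagen IX that coats cartilage fibrils, was at 2.77, 2.14 and 2.12 FPKM in the wt libraries and 9.09, 9.24 and 9.26 FPKM in the ko libraries. Its ko values were close to each other and clear of the wt values (log2 change 1.62 with SE 0.14, adjusted p = 6.8e-07). Lect1, the gene of the anti-angiogenic cartilage protein chondromodulin, was at 3.93, 2.01 and 3.23 FPKM in the wt libraries and 13.1, 11.8 and 14.98 FPKM in the ko libraries, again with no overlap (log2 change 1.84 with SE 0.18, adjusted p = 2.5e-06).

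Col2a1, the main collagen of cartilage, was already at 18.4, 17.5 and 18.6 FPKM in wt cells and reached 32.5, 45.03 and 44.4 FPKM in ko cells (log2 change 1.10 with SE 0.13, adjusted p = 3.1e-05). Col9a2 went from 2.42, 1.33 and 2.09 FPKM to 5.99, 8.84 and 6.35 FPKM (log2 change 1.45 with SE 0.17, adjusted p = 2.7e-05). All ko values of both collagens were above all wt values. At far higher levels, Chad (chondroadherin, a collagen-binding leucine-rich protein) was at 381, 431 and 407 FPKM in the wt libraries and 765, 828 and 807 FPKM in the ko libraries, and its mean was 1.97 times as high in ko cells (log2 change 0.98 with SE 0.06, adjusted p = 2.4e-08). Cilp2, a protein of articular cartilage, was at 53.2, 42.7 and 53.2 FPKM in the wt libraries and 101, 117 and 124 FPKM in the ko libraries, and Cytl1, a secreted protein of cartilage, at 99.3, 64.4 and 72.2 FPKM in the wt libraries and 165, 145 and 157 FPKM in the ko libraries. Neither gene's groups overlapped (log2 fold changes 1.18 and 1.00, adjusted p = 2.7e-07 and 0.00012). Sox9, the transcription factor of chondrocytes, stood at 19.6, 20.7 and 20.02 FPKM in the wt libraries and 23.1, 24.2 and 22.9 FPKM in the ko libraries, which did not pass the test (log2 fold change 0.21, adjusted p = 0.22). The listed genes below the filter were low in both groups: Col10a1, the collagen of hypertrophic chondrocytes, reached at most 0.553 FPKM, and Col9a1 was at 0.350, 0.174 and 0.366 FPKM in the wt libraries and 1.60, 2.72 and 0.682 FPKM in the ko libraries.

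**Figure D2:**
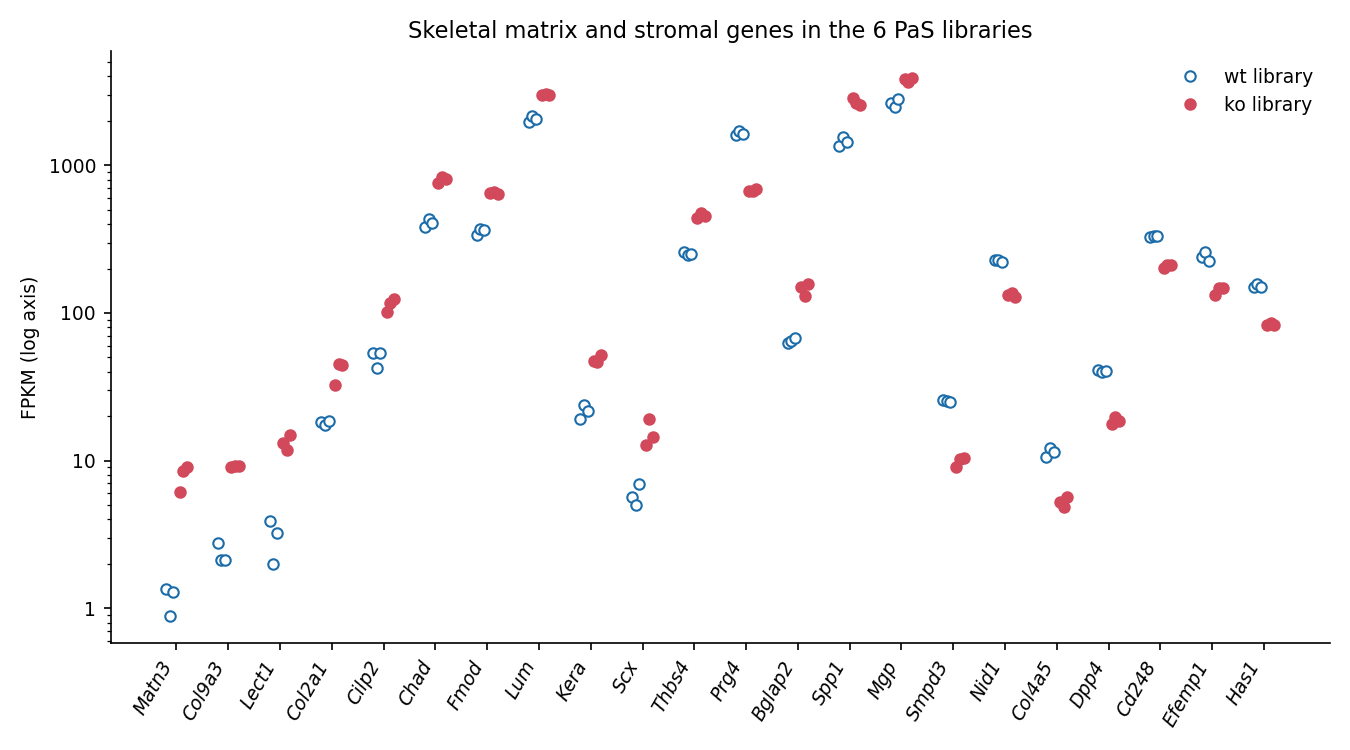
FPKM (y axis, log scale) of 22 genes named in the text in each PaS library, with open blue circles for the 3 wt and filled red circles for the 3 ko libraries. Cartilage, tendon and bone genes from Matn3 to Mgp sit higher in ko cells except Prg4, and Smpd3, Nid1, Col4a5, Dpp4, Cd248, Efemp1 and Has1 sit lower, with no overlap between groups for any gene shown.

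Small leucine-rich proteoglycans, which bind collagen fibrils and set their spacing, were called higher in most cases. Of 15 tested genes 11 were called higher and 0 lower, with a median log2 fold change of 0.41. The 4 genes Chad, Epyc, Fmod and Prelp stand on the cartilage list too. Lum (lumican) was at 1982, 2171 and 2049 FPKM in the wt libraries and 3011, 3040 and 2974 FPKM in the ko libraries, clear of each other (log2 change 0.54 with SE 0.06, adjusted p = 6.8e-06). Fmod (fibromodulin) rose to 1.82 times its wt mean, from 338, 368 and 364 FPKM to 645, 661 and 639.9 FPKM (log2 change 0.86 with SE 0.06, adjusted p = 6.3e-08). Omd (osteomodulin), a proteoglycan of bone, rose from 54.8, 59.2 and 61.3 FPKM to 85.4, 101 and 94.9 FPKM without overlap (log2 fold change 0.67, adjusted p = 1.1e-05). Dcn (decorin), among the most abundant transcripts of these cells, was at 10651, 11380 and 11123 FPKM in the wt libraries and 13008, 13234 and 12986 FPKM in the ko libraries. Its rise was small (log2 change 0.24 with SE 0.06, adjusted p = 0.012), and it did not pass without the first wt replicate (0.068), without the second ko replicate (0.05) or with no filter on low values (0.11).

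Several tendon genes rose and the joint lubricant gene fell. Of 13 tested genes of the joint surface and tendon, 6 were called higher and 1 lower (median 0.29). Scx, the transcription factor of tendon progenitors, was at 5.71, 5.01 and 6.92 FPKM in the wt libraries and 12.8, 19.3 and 14.5 FPKM in the ko libraries, with all ko values above all wt values (log2 change 1.26 with SE 0.21, adjusted p = 0.00084). Kera (keratocan) was at 19.1, 23.8 and 21.7 FPKM in the wt libraries and 47.4, 46.6 and 51.8 FPKM in the ko libraries and Thbs4, a thrombospondin of tendon matrix, at 260.4, 247 and 250.2 FPKM in the wt libraries and 440.4, 476 and 455 FPKM in the ko libraries. Both were higher in every ko library (log2 fold changes 1.14 and 0.85, adjusted p = 0.00018 and 8.3e-08). Prg4, which encodes lubricin, the lubricant of the joint surface, was at 1602, 1714 and 1634 FPKM in the wt libraries and 666, 667 and 692 FPKM in the ko libraries. The ko mean was 0.409 of the wt mean, and the spread within each group was far smaller than this gap (log2 change -1.29 with SE 0.09, adjusted p = 5.4e-08). Tnmd, the tendon membrane protein tenomodulin, did not pass the test, at 52.6, 46.6 and 50.4 FPKM in the wt libraries and 38.9, 33.7 and 45.3 FPKM in the ko libraries (adjusted p = 0.33).

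Several genes of bone matrix and mineralisation rose as well. Of 21 tested genes 12 were called higher and 1 lower, with a median of 0.43. Spp1 (osteopontin) was at 1362, 1565 and 1448 FPKM in the wt libraries and 2879, 2666 and 2566 FPKM in the ko libraries, and its mean was 1.85 times as high in ko cells (log2 change 0.89 with SE 0.06, adjusted p = 7.8e-08). Bglap2, a member of the near-identical osteocalcin genes that can share reads, was at 62.6, 64.1 and 67.8 FPKM in the wt libraries and 149, 131 and 157 FPKM in the ko libraries, with no overlap (log2 change 1.15 with SE 0.12, adjusted p = 7.9e-06). Mgp, the inhibitor of calcification in cartilage and vessels, was among the largest rises in FPKM, from 2662, 2486 and 2813 FPKM to 3871, 3697 and 3927 FPKM (log2 change 0.53 with SE 0.06, adjusted p = 2.4e-05). Alpl, the alkaline phosphatase of osteoblasts, was at 90.7, 95.6 and 90.00 FPKM in the wt libraries and 147, 142 and 135 FPKM in the ko libraries, and Sp7 (osterix), the transcription factor of osteoblast commitment, at 5.19, 5.44 and 4.87 FPKM in the wt libraries and 11.3, 9.09 and 7.94 FPKM in the ko libraries. Both rose without overlap (log2 fold changes 0.61 and 0.75, adjusted p = 1.3e-05 and 0.00084). The exception was Smpd3, a sphingomyelinase needed for mineralisation, at 25.8, 25.4 and 24.8 FPKM in the wt libraries and 9.12, 10.2 and 10.5 FPKM in the ko libraries, which fell (log2 change -1.27 with SE 0.10, adjusted p = 3.2e-07). Runx2, the master regulator of the lineage, was at 9.61, 11.3 and 7.97 FPKM in the wt libraries and 10.1, 9.06 and 9.12 FPKM in the ko libraries and its groups overlapped (adjusted p = 0.96).

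Several basement membrane genes fell. Of 14 tested genes 8 were called lower and 0 higher (median -0.40). Nid1, the nidogen that links laminin to collagen IV, was at 227, 227 and 221 FPKM in the wt libraries and 133, 136 and 129 FPKM in the ko libraries, and the ko values were far below the wt values relative to their spread (log2 change -0.76 with SE 0.06, adjusted p = 7.2e-07). Col4a2, a chain of the main collagen IV network, fell from 88.02, 77.9 and 85.03 FPKM to 56.5, 59.7 and 59.9 FPKM (log2 change -0.50 with SE 0.07, adjusted p = 0.00016). Col4a5 was low and fell further, from 10.5, 12.2 and 11.4 FPKM to 5.22, 4.85 and 5.66 FPKM (log2 change -0.99 with SE 0.14, adjusted p = 0.00021). Lamc1, the laminin γ chain shared by most laminins, was at 62.8, 62.2 and 56.3 FPKM in the wt libraries and 39.8, 40.2 and 42.4 FPKM in the ko libraries, again without overlap (log2 fold change -0.55, adjusted p = 0.00014). Endothelial and pericyte cells make basement membrane too, and the summed shares of their marker lists moved in opposite directions. The endothelial genes held 0.0726% to 0.0787% of FPKM in wt and 0.0586% to 0.0594% in ko libraries. The pericyte genes held 0.0361% to 0.0371% and 0.0426% to 0.0438%. Of 14 tested endothelial genes 12 were not called, and the 2 called lower were Ramp2 and Tek (log2 fold changes -0.53 and -1.25). By gene, 5 of the 14 had a log2 fold change above 0 (median -0.18), against 6284 of all 12378 tested genes. The part of endothelial and pericyte cells in the fall of basement membrane genes was not tested.

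Other matrix genes moved in both directions. Among elastic fibre genes, Fbn1 (fibrillin) fell from 92.95, 90.00 and 89.1 FPKM to 60.5, 56.8 and 58.5 FPKM (log2 change -0.62 with SE 0.08, adjusted p = 6.2e-05), while Mfap4, a microfibril-associated protein, rose from 83.5, 90.5 and 91.6 FPKM to 186, 192 and 171 FPKM (log2 change 1.04 with SE 0.11, adjusted p = 5.6e-06). Has1, a hyaluronan synthase, was at 149, 158 and 150.2 FPKM in the wt libraries and 83.4, 84.9 and 82.9 FPKM in the ko libraries, so that every ko value was under every wt value (log2 change -0.86 with SE 0.09, adjusted p = 6.6e-06). Among proteases, Mmp3 (stromelysin) was at 75.6, 75.6 and 87.9 FPKM in the wt libraries and 215, 212 and 199 FPKM in the ko libraries and Mmp13 (collagenase) at 266, 281 and 279 FPKM in the wt libraries and 526, 491 and 502 FPKM in the ko libraries. Both rose in every ko library (log2 fold changes 1.38 and 0.88, adjusted p = 1.7e-07 and 2.4e-08). Plod2, the lysyl hydroxylase that makes collagen crosslinks stable, was at 31.7, 32.6 and 33.1 FPKM in the wt libraries and 52.2, 62.6 and 53.4 FPKM in the ko libraries and rose (log2 change 0.77 with SE 0.08, adjusted p = 3.9e-06). Of 18 fibrillar and associated collagens 4 were called higher and 3 lower, and Col3a1, at 3407, 3409 and 3251 FPKM in the wt libraries and 2908, 3356 and 3047 FPKM in the ko libraries, was not called (adjusted p = 0.33). Among matricellular proteins Nov (CCN3) fell from 456, 467 and 462 FPKM to 250.3, 285 and 293 FPKM and Wisp1 (CCN4) rose from 3.64, 2.75 and 3.31 FPKM to 7.99, 7.36 and 9.71 FPKM (log2 fold changes -0.74 and 1.14, adjusted p = 3.8e-05 and 5e-06).

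Among genes that mark PaS cells and adventitial fibroblasts, more were called lower than higher. Of 24 tested genes 11 were called lower and 2 higher and 11 were not called, with a median of -0.37. The 2 called higher were Mfap4 and Dcn, described above (log2 fold changes 1.04 and 0.24, adjusted p = 5.6e-06 and 0.012). The 4 genes Efemp1, Fbn1, Mfap4 and Mfap5 stand on the elastic fibre list too. Cd248 (endosialin) was at 327, 334 and 335 FPKM in the wt libraries and 202, 212 and 211 FPKM in the ko libraries, and Efemp1 (fibulin-3) at 239, 261 and 226 FPKM in the wt libraries and 133, 148 and 147 FPKM in the ko libraries. Neither showed overlap (log2 fold changes -0.67 and -0.76, adjusted p = 3.4e-05 and 1.7e-06). Dpp4, a surface peptidase that marks fibroblast progenitors, was at 41.1, 39.96 and 40.3 FPKM in the wt libraries and 17.6, 19.9 and 18.4 FPKM in the ko libraries, and the ko mean was 0.460 of the wt mean (log2 change -1.08 with SE 0.19, adjusted p = 0.0015). Pi16, a marker of the same adventitial fibroblasts, was at 269, 302 and 269 FPKM in the wt libraries and 174, 168 and 126 FPKM in the ko libraries, with no overlap (log2 change -0.85 with SE 0.16, adjusted p = 0.0023). Cd34 fell from 662, 618 and 671 FPKM to 442, 472 and 468 FPKM (log2 fold change -0.50, adjusted p = 0.0046). Gsn (gelsolin), an actin-severing protein, was the most abundant of these genes in wt cells, while Dcn was above it in ko cells. Gsn was at 14224 and 14502 FPKM in the first and the third wt replicate and 9491, 9583 and 10142 FPKM in the ko libraries. The second wt replicate lists it at 0, which was taken as a failed estimate and left out, so its fall (log2 change -0.56 with SE 0.07, adjusted p = 9.9e-05) rests on 2 wt values. Dpt (dermatopontin), another fibroblast marker, was at 298, 292 and 309 FPKM in the wt libraries and 345, 314 and 371 FPKM in the ko libraries and did not pass the test (adjusted p = 0.26).

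Dpp4 and Scg3 are the called genes with the largest changes whose window of promoter holds the sequence that EBF proteins are known to bind. This EBF motif is a palindrome of 10 bases whose 2 central bases may be any, so it reads the same on either strand. It was searched in 1 RefSeq promoter per gene, from 250 bases before to 50 after the start (assembly GRCm38.p6). These promoters were picked after the values were seen. Scg3 encodes a secretogranin of secretory granules, and it was at 69.6, 83.1 and 79.2 FPKM in the wt libraries and 36.6, 33.7 and 34.2 FPKM in the ko libraries, with all ko values below all wt values (log2 change -1.12 with SE 0.14, adjusted p = 3.5e-05). It was no longer called with a pseudocount of 0.1 (adjusted p = 0.16). Dpp4 lies on chromosome 2 and its window is chr2:62412182-62412481, minus strand. The Scg3 window is chr9:75684007-75684306, minus strand. Both are printed 5′ to 3′ along the gene's strand, with the match in capitals, which starts at base -115 from the Dpp4 start and at base -60 from the Scg3 start.
Dpp4: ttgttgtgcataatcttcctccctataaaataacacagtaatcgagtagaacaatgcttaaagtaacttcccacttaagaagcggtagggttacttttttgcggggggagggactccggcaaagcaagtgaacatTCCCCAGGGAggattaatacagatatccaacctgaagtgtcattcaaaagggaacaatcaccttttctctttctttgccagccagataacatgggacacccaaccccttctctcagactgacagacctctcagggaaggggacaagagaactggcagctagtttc
Scg3: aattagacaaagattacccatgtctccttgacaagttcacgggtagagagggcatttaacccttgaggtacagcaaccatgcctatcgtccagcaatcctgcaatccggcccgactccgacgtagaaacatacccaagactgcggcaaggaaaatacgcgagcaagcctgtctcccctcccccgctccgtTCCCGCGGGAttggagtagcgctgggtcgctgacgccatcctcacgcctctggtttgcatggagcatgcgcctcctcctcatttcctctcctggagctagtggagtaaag
The match was rare in every set of genes. Of 334 genes called higher with a listed promoter 4 held it (1.2%), of 404 called lower 4 held it (0.99%), and of all 9886 tested genes with a promoter 108 held it (1.09%). The share over all 32851 promoters listed was 0.904%. No match was found in the 13 promoters of the 15 largest increases or the 14 of the 15 largest decreases.

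Genes outside the skeletal lists made up most of the largest rises. Cfd (complement factor D, also called adipsin), a serine protease of the alternative complement pathway that fat cells secrete in quantity, was at 2.26, 2.72 and 2.95 FPKM in the wt libraries and 35.04, 30.4 and 32.9 FPKM in the ko libraries. Its mean was 2.64 ± 0.351 FPKM (SD, n = 3) in wt and 32.8 ± 2.31 FPKM (SD, n = 3) in ko cells, 12.4 times as high (log2 change 3.22 with SE 0.20, adjusted p = 1.8e-08). Of 18 tested genes on the list of fat cell genes, which does not hold Cfd, 2 were called higher and 4 lower (median -0.02). Retn (resistin), which passed the filter only through the ko libraries, rose from 0.117, 0 and 0.575 FPKM to 1.82, 1.03 and 2.72 FPKM (log2 fold change 1.20, adjusted p = 0.008), but was not called without the third ko replicate (0.051). Dgat2, an enzyme of triglyceride synthesis, and G0s2, an inhibitor of lipolysis, fell, with log2 fold changes of -0.95 and -0.78 (adjusted p = 0.0004 and 1.2e-05). Adipoq (adiponectin) was at 470.3, 461 and 464 FPKM in the wt libraries and 519, 478 and 484 FPKM in the ko libraries and Pparg, the regulator of fat cell differentiation, at 21.3, 28.9 and 28.6 FPKM in the wt libraries and 33.4, 28.6 and 27.3 FPKM in the ko libraries, and neither was called (adjusted p = 0.4 and 0.39). Car4, a membrane-bound carbonic anhydrase, was at 0.125, 0 and 0.0813 FPKM in the wt libraries and 9.36, 5.12 and 5.02 FPKM in the ko libraries, so it was near 0 in wt cells (log2 change 2.76 with SE 0.22, adjusted p = 2.6e-07). Msmp, which encodes a secreted microseminoprotein, was abundant, at 88.7, 80.8 and 107 FPKM in the wt libraries and 442, 441 and 465 FPKM in the ko libraries, with a clear gap between the groups (log2 change 2.28 with SE 0.12, adjusted p = 2.8e-09). Edn2 (endothelin-2), which passed the filter only through the ko libraries, rose from 0.307, 0 and 0.343 FPKM to 5.04, 3.20 and 2.22 FPKM (log2 fold change 1.85, adjusted p = 2.2e-05). Clec3a, a C-type lectin of cartilage, rose from 16.8, 18.2 and 14.8 FPKM to 50.2, 43.96 and 56.98 FPKM (log2 fold change 1.54, adjusted p = 5.3e-08). Cda (cytidine deaminase) was at 0.968, 0.888 and 1.82 FPKM in the wt libraries and 7.49, 6.28 and 6.57 FPKM in the ko libraries and Dmkn (dermokine) at 12.5, 10.04 and 10.6 FPKM in the wt libraries and 41.5, 44.9 and 31.7 FPKM in the ko libraries. Each was higher in all 3 ko libraries than in any wt library (log2 fold changes 1.83 and 1.73, adjusted p = 3.7e-05 and 1.2e-06). Also among the 15 largest rises were Syndig1 (1.85), Otor (1.76), Cbr2 (1.59) and Prss35 (1.51), all under 6 FPKM in every library.

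Signalling genes showed separate, mostly small changes. Of 9 tested Wnt antagonists 3 were called higher and 2 lower. The falls were those of Sfrp1 and Sfrp4 (log2 fold changes -0.37 and -0.17, adjusted p = 0.018 and 0.044), and neither was called without the first wt, the second wt, the first ko or the third ko replicate (adjusted p from 0.055 to 0.082 for Sfrp1 and from 0.065 to 0.13 for Sfrp4). Sfrp4 was also not called without the third wt (0.12) or the second ko replicate (0.12), with no filter (0.086), library weights (0.057), only PaS libraries fitted (0.06) or zeros kept (0.054). The rises included Dkk3 from 70.9, 74.6 and 79.8 FPKM to 124, 135 and 132 FPKM and Wif1 from 58.1, 65.04 and 56.5 FPKM to 94.1, 103 and 94.1 FPKM (log2 fold changes 0.79 and 0.69, adjusted p = 8.6e-07 and 2.1e-06). Lgr5, the R-spondin receptor, was low in wt cells at 1.31, 1.67 and 1.37 FPKM and reached 4.04, 3.80 and 4.02 FPKM in ko cells (log2 change 1.02 with SE 0.15, adjusted p = 0.00031). Tnfrsf11b (osteoprotegerin), the decoy that blocks osteoclast formation, was at 14.7, 15.9 and 18.5 FPKM in the wt libraries and 26.6, 40.8 and 30.96 FPKM in the ko libraries, and Csf1, the growth factor of the macrophage and osteoclast lineage, at 127, 137 and 134 FPKM in the wt libraries and 109.5, 102 and 96.4 FPKM in the ko libraries. The first rose and the second fell, without overlap (log2 fold changes 0.95 and -0.36, adjusted p = 0.00013 and 0.0018). Among IGF binding proteins Igfbp4 fell from 1451, 1407 and 1578 FPKM to 1193, 1095 and 1158 FPKM and Igfbp7 rose from 1764, 1663 and 1887 FPKM to 2183, 2132 and 2190 FPKM (log2 fold changes -0.36 and 0.29, adjusted p = 0.00025 and 0.0013). Angptl7, an angiopoietin-like secreted protein, was at 226, 239 and 224 FPKM in the wt libraries and 438, 464 and 463 FPKM in the ko libraries, with a gap many times the spread (log2 change 0.98 with SE 0.06, adjusted p = 2e-08). Of 26 BMP pathway genes 6 were called higher and 4 lower, a count of rises that fell to 2 without the second ko replicate and to 3 without the first wt, the second wt or the first ko replicate. No Notch gene of 11 was called by limma, and 1 had an unadjusted p under 0.05.

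Factors that support blood stem cells moved in both directions: of 18 tested niche factors 6 were called higher and 6 lower (median -0.08). This list shares 6 genes with the chemokine and cytokine list. Among them are Ccl2, Ccl7, Cxcl1 and Il6, which were called lower and count in both lists. The genes Cxcl12, Kitl, Il7, Lepr and Vcam1 are not among the 18 and stand on the list of CAR cell markers. Cxcl12, the chemokine that keeps stem cells in the marrow, was at 4369, 4203 and 4258 FPKM in the wt libraries and 4835, 4203 and 4127 FPKM in the ko libraries, and Kitl (stem cell factor) at 34.9, 35.01 and 30.4 FPKM in the wt libraries and 37.3, 30.1 and 32.4 FPKM in the ko libraries. Both overlapped between the groups (adjusted p = 0.85 and 0.98). Il7, the growth factor of B cell progenitors, was at 10.5, 12.1 and 9.19 FPKM in the wt libraries and 13.1, 8.09 and 13.5 FPKM in the ko libraries (adjusted p = 0.81), and Lepr, the leptin receptor that marks CAR cells, at 255, 269.8 and 242 FPKM in the wt libraries and 259.9, 245 and 248 FPKM in the ko libraries (adjusted p = 0.91). Among the listed niche factors that rose, Ptn (pleiotrophin) was at 23.01, 23.2 and 25.1 FPKM in the wt libraries and 36.6, 40.6 and 36.00 FPKM in the ko libraries without overlap (log2 change 0.64 with SE 0.09, adjusted p = 0.00021). Vcam1, an adhesion molecule for blood cells, stood at 247, 255 and 237 FPKM in the wt libraries and 348, 280.1 and 281 FPKM in the ko libraries. It was called higher (log2 change 0.29 with SE 0.08, adjusted p = 0.03), but not with only PaS libraries fitted (0.051), with no filter (0.1), or without the first wt (0.078), the third wt (0.1) or the first ko replicate (0.14). Of 22 tested markers of CAR cells 4 were called higher and 3 lower (median 0.10), and the rises were 2 without the first wt or the first ko replicate.

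Several inflammatory chemokines fell. Of 22 tested chemokines and cytokines 6 were called lower and 2 higher. Cxcl1, which attracts neutrophils, was at 698, 776 and 726 FPKM in the wt libraries and 505, 453 and 508 FPKM in the ko libraries, and Ccl7, which attracts monocytes, at 213, 217 and 219.5 FPKM in the wt libraries and 141, 133 and 128 FPKM in the ko libraries. All ko values were below all wt values (log2 fold changes -0.58 and -0.69, adjusted p = 6.6e-06 and 3.7e-07). Cxcl2 fell from 27.02, 28.7 and 25.98 FPKM to 9.41, 12.97 and 10.8 FPKM and Il6 from 95.3, 98.7 and 111 FPKM to 78.6, 73.01 and 69.2 FPKM (log2 fold changes -1.24 and -0.46, adjusted p = 9.2e-05 and 0.00036). Osm (oncostatin M), a cytokine of myeloid cells, was at 18.03, 23.9 and 19.5 FPKM in the wt libraries and 5.96, 5.33 and 4.64 FPKM in the ko libraries and fell with the neutrophil genes described below (log2 change -1.76 with SE 0.23, adjusted p = 6.9e-05). The part of myeloid cells in these falls was not tested. In the other direction Cxcl10 was at 60.7, 56.9 and 57.1 FPKM in the wt libraries and 107, 78.6 and 79.1 FPKM in the ko libraries, above the wt range in each ko library (log2 change 0.58 with SE 0.09, adjusted p = 0.00062).

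Complement genes moved in both directions. Of 19 tested genes 9 were called higher and 6 lower (median 0.33). C3, the central component, which stromal cells make, was at 371, 361 and 365 FPKM in the wt libraries and 234, 238 and 226 FPKM in the ko libraries and fell without overlap (log2 change -0.65 with SE 0.06, adjusted p = 2.1e-06). C1qa and C1qc, chains of C1q that macrophages make, were at 39.4, 32.6 and 36.8 FPKM in the wt libraries and 100.5, 77.9 and 84.8 FPKM in the ko libraries and at 50.5, 38.4 and 61.6 FPKM in the wt libraries and 155, 117 and 139.8 FPKM in the ko libraries. Both rose (log2 fold changes 1.25 and 1.45, adjusted p = 8.6e-05 and 0.00021). Timd4, a receptor for dead cells on resident macrophages, rose beside them, from 2.86, 1.34 and 2.21 FPKM to 10.2, 13.3 and 9.60 FPKM (log2 change 1.96 with SE 0.19, adjusted p = 3.8e-06), as did Slc40a1 (ferroportin), the iron exporter, from 44.3, 44.6 and 41.2 FPKM to 84.00, 70.4 and 75.1 FPKM (log2 change 0.80 with SE 0.08, adjusted p = 2.5e-06). Of the monocyte and macrophage list, Lyz2 (lysozyme) and Ly6c2 fell. Lyz2 went from 1011, 1005 and 1041 FPKM to 419, 441 and 437 FPKM (log2 fold change -1.24, adjusted p = 1e-08). Ly6c2 went from 139, 120.1 and 141 FPKM to 67.2, 52.2 and 58.7 FPKM (log2 fold change -1.16, adjusted p = 1.3e-06). In the whole monocyte and macrophage list, 8 of 19 tested genes were called higher and 5 lower. The rises numbered 4 without the first ko replicate and 5 without the second wt replicate. The list held 0.400% to 0.411% of FPKM in wt and 0.261% to 0.284% in ko libraries. This share leans on Lyz2: the list summed to 2115, 1984 and 2105 FPKM in the wt libraries and 1425, 1316 and 1292 FPKM in the ko libraries, Lyz2 included. By gene, 12 of the 19 tested members had a log2 fold change above 0 (median 0.53), against 6284 of all 12378 tested genes. The part of macrophages in the C1q values was not tested.

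Genes of blood cells gave the largest falls. In a bulk sample fewer cells of a type and less RNA per cell cannot be told apart, and the sort gated against CD45 and lineage markers. Of 19 tested neutrophil genes 18 were called lower and 0 higher, with a median of -1.72, and the list held 4.66% to 4.87% of FPKM in wt and 1.43% to 1.47% in ko libraries. S100a8, a calcium-binding protein that fills the neutrophil cytosol, was at 12320, 10919 and 12795 FPKM in the wt libraries and 3521, 3283 and 3556 FPKM in the ko libraries, and the ko mean was 0.287 of the wt mean (log2 change -1.80 with SE 0.08, adjusted p = 3e-10). Ltf (lactoferrin), a protein of secondary granules, was at 331, 340.2 and 334 FPKM in the wt libraries and 81.9, 92.01 and 90.8 FPKM in the ko libraries, with a similar ratio of 0.263 (log2 change -1.92 with SE 0.10, adjusted p = 2.8e-09). Elane (neutrophil elastase) and Mpo (myeloperoxidase), enzymes of the primary granules of early precursors, had smaller fold changes. Elane was at 170.3, 157 and 161 FPKM in the wt libraries and 89.5, 81.6 and 78.1 FPKM in the ko libraries (log2 change -0.96 with SE 0.09, adjusted p = 1.4e-06) and Mpo at 137, 163 and 149 FPKM in the wt libraries and 119.8, 94.8 and 99.9 FPKM in the ko libraries (log2 change -0.51 with SE 0.11, adjusted p = 0.0059). Fold differences between genes of 1 list were not tested against each other.

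Platelet and basophil genes included the largest falls. Pf4 (platelet factor 4) was at 257, 293 and 314 FPKM in the wt libraries and 31.2, 22.1 and 33.1 FPKM in the ko libraries, and the ko mean was 0.100 of the wt mean (log2 change -3.29 with SE 0.58, adjusted p = 0.0013). Of 14 tested megakaryocyte genes 8 were called lower and 0 higher (median -1.32), and 5 passed the filter only through the wt libraries. For Treml1 of this list the log2 change was -2.34 (adjusted p = 0.014), which did not pass without the third wt replicate (0.057), without the third ko replicate (0.051) or with no filter (0.11). Prss34 and Mcpt8, proteases of basophils, were at 22.1, 24.3 and 23.4 FPKM in the wt libraries and 3.01, 1.79 and 4.46 FPKM in the ko libraries and at 23.7, 25.2 and 23.1 FPKM in the wt libraries and 4.47, 5.94 and 3.11 FPKM in the ko libraries. Both dropped in every ko library (log2 fold changes -2.62 and -2.22, adjusted p = 4.3e-06 and 3.7e-07). Of 14 tested genes of basophils, mast cells and eosinophils 8 were called lower and 1 higher, and 3 passed the filter only through the wt libraries. The falls numbered 5 without the first ko replicate, and the rise was lost without the first wt, the third wt or the first ko replicate.

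Some erythroid and cell cycle genes rose. Of 20 tested erythroid genes 9 were called higher and 0 lower (median 0.49). Car1, the carbonic anhydrase of red cells, was at 38.9, 42.8 and 41.1 FPKM in the wt libraries and 79.8, 87.5 and 95.1 FPKM in the ko libraries, and Rhd, a Rhesus blood group protein, at 20.4, 19.7 and 21.3 FPKM in the wt libraries and 35.7, 36.5 and 39.9 FPKM in the ko libraries. Both rose without overlap (log2 fold changes 1.07 and 0.84, adjusted p = 5.4e-08 and 7.1e-06). The list's summed share was 0.827% to 1.02% of FPKM in wt and 1.02% to 1.09% in ko libraries. Of 24 tested cell cycle genes 6 were called higher and 0 lower (median 0.21). Mki67, the proliferation marker, was at 3.32, 3.86 and 3.56 FPKM in the wt libraries and 5.43, 5.96 and 6.45 FPKM in the ko libraries, and Birc5 (survivin), a mitotic protein, at 29.6, 22.7 and 30.4 FPKM in the wt libraries and 42.9, 39.8 and 43.5 FPKM in the ko libraries. Both were higher in every ko library (log2 fold changes 0.60 and 0.60, adjusted p = 0.0075 and 0.0016). The part of erythroid cells in the cell cycle values was not tested.

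**Figure D3:**
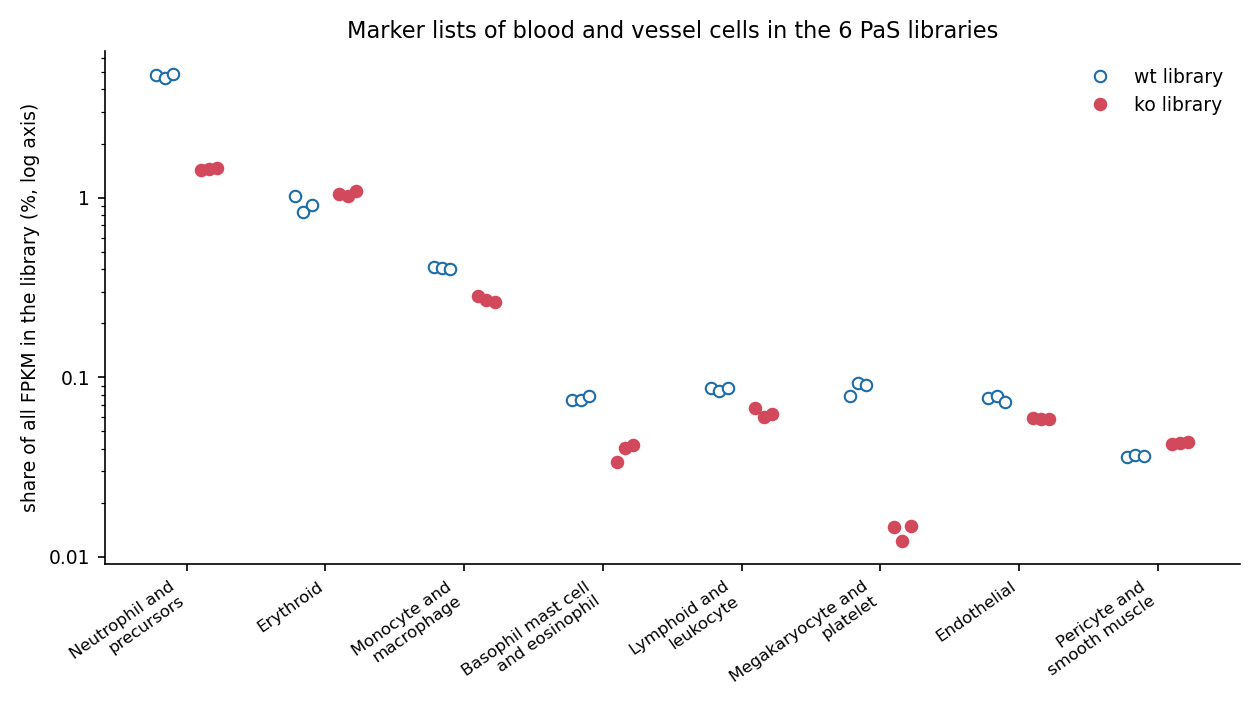
Share of all FPKM (y axis, percent, log scale) held by the genes of 8 marker lists in each PaS library, open blue circles for wt and filled red circles for ko. The neutrophil list lies at 4.66% to 4.87% in wt and 1.43% to 1.47% in ko, the megakaryocyte list at 0.0123% to 0.0150% in ko, and the erythroid list lies at 0.827% to 1.02% in wt and 1.02% to 1.09% in ko.

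Several genes of cholesterol synthesis fell in ko PaS cells. Of 23 tested genes 9 were called lower and 0 higher (median -0.38), and 5 were called without the third ko replicate. Sqle (squalene epoxidase) was at 23.4, 23.5 and 21.5 FPKM in the wt libraries and 14.2, 13.96 and 13.6 FPKM in the ko libraries, with no overlap (log2 change -0.67 with SE 0.12, adjusted p = 0.0018). Hmgcs1, the HMG-CoA synthase early in the pathway, fell from 36.8, 39.3 and 33.4 FPKM to 27.3, 20.5 and 27.1 FPKM (log2 fold change -0.54, adjusted p = 0.0046). Scd1, which desaturates fatty acids, was at 47.6, 42.4 and 49.5 FPKM in the wt libraries and 25.5, 27.4 and 28.95 FPKM in the ko libraries, and Acly, which supplies cytosolic acetyl-CoA to both pathways, at 56.7, 54.4 and 55.3 FPKM in the wt libraries and 34.1, 40.6 and 35.4 FPKM in the ko libraries. Both fell (log2 fold changes -0.75 and -0.59, adjusted p = 0.00011 and 0.00045). Fabp4, a fatty acid carrier, rose from 118, 108 and 108 FPKM to 160.3, 151 and 149 FPKM (log2 change 0.45 with SE 0.09, adjusted p = 0.0045).

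Several lists had few or no calls. Of 40 tested skeletal and stromal transcription factors 1 was called higher and 0 lower (median 0.01). It was Prrx2, a homeobox relative of Prrx1, at 79.2, 78.8 and 90.1 FPKM in the wt libraries and 121, 107 and 121 FPKM in the ko libraries (log2 change 0.49 with SE 0.09, adjusted p = 0.0016). None of 17 Hox genes, 27 ribosomal protein genes or 27 oxidative phosphorylation genes was called by limma, and 1, 0 and 3 of them had an unadjusted p under 0.05. In oxidative phosphorylation 1 gene was called under 3 of the alternatives (quantile normalization, the replicate block, and without the third wt replicate). None of 18 antigen presentation genes was called, with 2 at an unadjusted p under 0.05, and 1 was called lower without the first ko replicate. Immediate early genes, which are induced rapidly by many stimuli, were called lower in 7 of 25 cases, 3 without the first wt replicate and 3 after quantile normalization. Fosl1 of this list fell from 6.88, 9.003 and 7.17 FPKM to 2.21, 3.35 and 3.31 FPKM (log2 change -1.14 with SE 0.20, adjusted p = 0.0011).

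**Figure D4:**
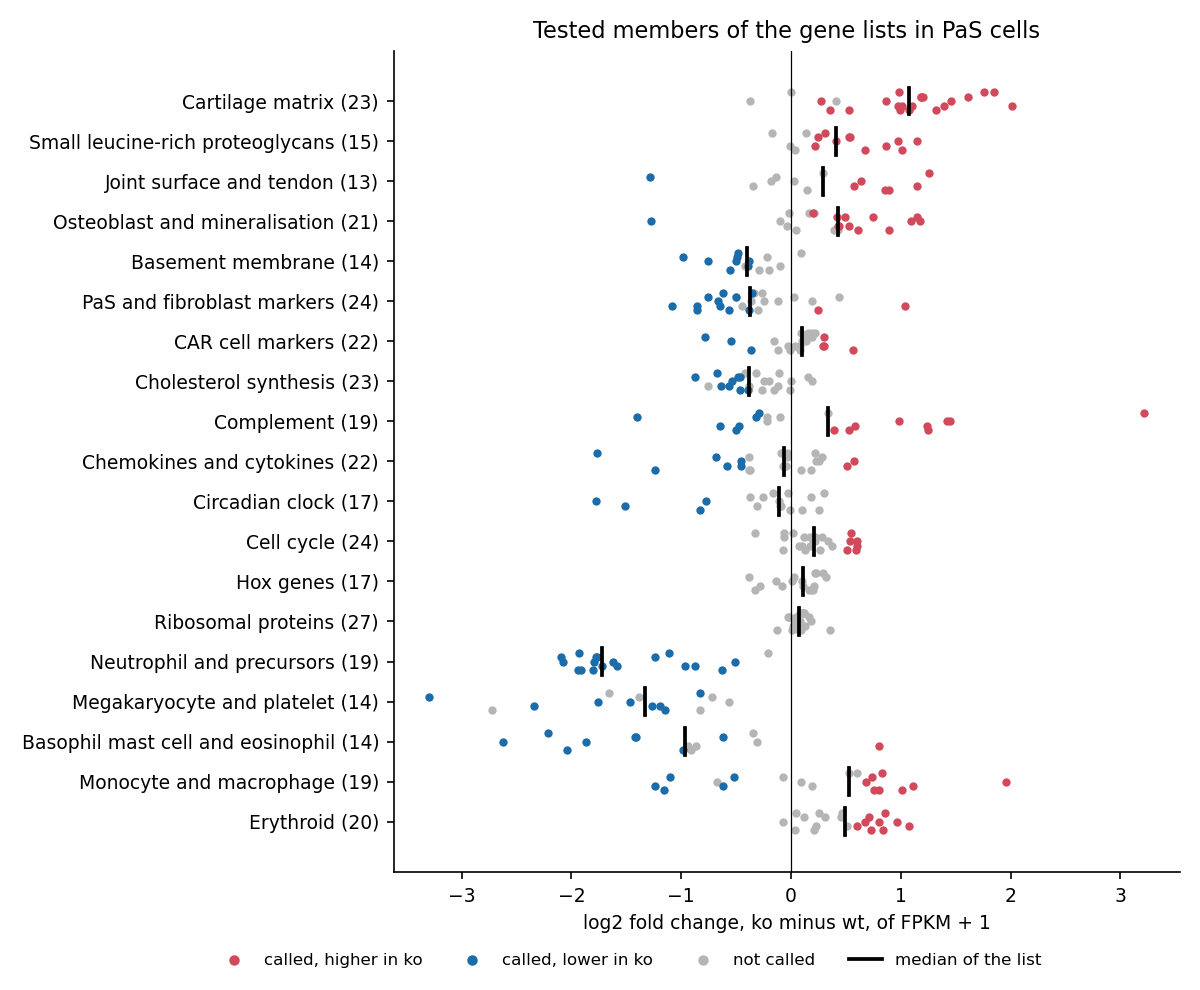
Log2 fold change, ko minus wt (x axis), of the tested members of 19 gene lists (number tested in brackets), with red points called higher, blue points called lower, grey points not called and a black bar at each list's median. Cartilage matrix has its median at 1.07 and the neutrophil list at -1.72, while Hox and ribosomal protein genes gather near 0.

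The PaS response differed from that of CAR cells in many genes. The difference of the ko effects between the cell types passed the test in 890 of 12378 genes (7.19%), 439 with a more positive effect in PaS cells and 451 with a more negative one. The comparison uses separate wt and ko libraries for each cell type, and CAR cells came from the same genotypes. Prg4 fell in PaS cells and rose in CAR cells, where its means were 259 FPKM (wt) and 691 FPKM (ko) and its log2 fold change was 1.43 (adjusted p = 3e-08, difference -2.71 on the log2 scale, SE 0.12, adjusted p = 1.5e-09). Lect1 and Col9a3 rose in PaS cells, and in CAR cells their log2 fold changes were -2.01 and -2.07 (differences 3.86 and 3.69, adjusted p = 6e-08 and 5e-09). Over the whole cartilage list the difference was called positive in 8 and negative in 2 of 23 genes. In CAR cells alone 11 of these 23 genes were called higher and 4 lower in ko cells (median 0.34). The same counts over all 12378 tested genes were 817 and 742. Lect1 and Col9a3 thus went against most called cartilage genes of CAR cells. Among the markers of PaS cells the difference was called negative in 12 and positive in 1 of 24 genes. In CAR cells 10 of these 24 genes were called higher and 3 lower in ko cells (median 0.34), so the negative differences do not stem from PaS cells alone. The difference was not called for 2 bone genes with large PaS changes: for Spp1 it was 0.19 (adjusted p = 0.25) and for Bglap2 -0.04 (adjusted p = 0.93). Otor, Clec3a and Prss35 rose in both cell types, with CAR log2 fold changes of 1.60, 1.24 and 1.55 (adjusted p = 0.00037, 6.1e-07 and 1.5e-06). For Cfd and Car4, whose CAR log2 fold changes were -0.23 and -0.01, the differences were 3.45 and 2.78 (adjusted p = 8.7e-07 and 2.7e-05).

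**Figure D5:**
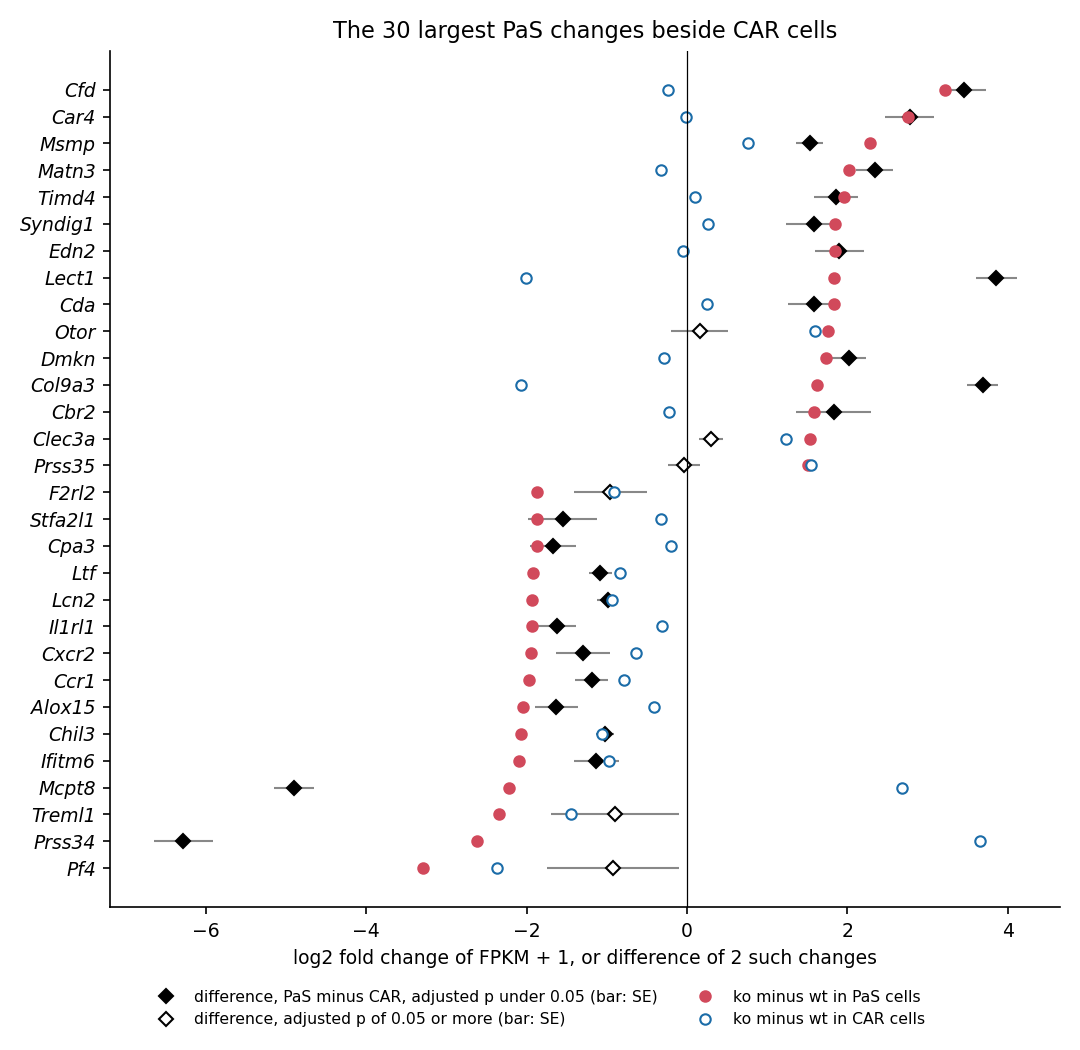
Log2 fold changes, ko minus wt, of the 15 largest increases and 15 largest decreases in PaS cells (red points) beside those of the same genes in CAR cells (open blue circles), and the difference PaS minus CAR with its SE (diamonds, filled where the adjusted p is under 0.05). The difference passed in 24 of the 30 genes, and it is largest for Prss34 (-6.28) and Mcpt8 (-4.90), which were higher in ko CAR cells.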

How the data were processed

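RNA of 12 sorted stromal cell libraries was measured after oligo dT enrichment and SMART-Seq v4 amplification, per the labels' protocols. The authors deposited FPKM values for 24347 gene symbols in each library, per the file headers. TopHat2 2.0.14 and the mm10 build are named in the submitters' processing notes, as are Cuffnorm and Cufflinks, both 2.2.1. The gene annotation, read totals and strand setting are not given in the sources used here, so overlapping genes and near-identical copies are uncertain. In the gene name table, 23314 symbols were found.

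The 12378 genes that reached 1 FPKM in 3 or more PaS libraries were tested as log2(FPKM + 1). This scale understates the fold change of low genes, and a gene can pass the filter through 1 group alone. A listed 0 beside 100 FPKM or more in the same group was taken as a failed estimate and left missing. There were 44 such values, 22 in PaS libraries, which touched 2 tested genes. A model of the 4 groups was fitted to all 12 libraries with limma 3.58.1 in R 4.3.3 (eBayes with a trend, 8 residual degrees of freedom), with Benjamini-Hochberg adjustment over all tested genes. Contrasts were ko minus wt in PaS cells, and the same minus that in CAR cells. No pair of PaS libraries shared an identical value above 0 in more than 1 gene. The method was tested on simulated data with the spread of these libraries, in which fewer genes were changed than were called here. It called 25 of 66 genes changed by 0.5 on the log2 scale (37.9%). Of those changed by 1.0 it called 57 of 67 (85.1%), and of those changed by 2.0 64 of 67 (95.5%). False calls numbered 9 among the unchanged rest of the 12378 genes. A gene that was not called can therefore still differ by a small amount. The rates depend on how many genes change, so they need not hold for the real data.

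Genes named are the 15 largest called changes in each direction without overlap (no predicted or small RNA genes), up to 5 per list by p, 17 fixed genes and the 10 largest FPKM differences in each direction. Others were chosen after their values were seen. The members and the 53 lists were chosen with earlier results of these data known. The 17 alternatives covered the pseudocount, the filter, scaling, weights, zeros, the libraries fitted, a replicate block and each PaS library left out. The 8 ATAC-seq samples were not analysed here.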

Additional observations from a re-analysis of the deposited data

Results flagged for a closer look

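The 30 genes with the largest changes in PaS cells were compared with the same genes in CAR cells, and in 24 of them, 12 increases and 12 decreases, the difference of the ko effects passed the test (limma interaction, adjusted p under 0.05). The background for this comparison is 7.19% of all tested genes, and the 30 were chosen on their PaS values, which raises that share. Values are PaS effect minus CAR effect on the log2(FPKM + 1) scale. For Prss34 the difference was -6.28 and for Mcpt8 -4.90: both basophil protease genes fell in ko PaS cells, and in CAR cells their wt means were 3.87 and 4.53 FPKM and their ko means 56.2 and 34.5 FPKM. For the cartilage genes Lect1, Col9a3 and Matn3 it was 3.86, 3.69 and 2.34, and for Cfd and Car4 3.45 and 2.78. The increases Dmkn (2.02), Edn2 (1.90), Timd4 (1.86), Cbr2 (1.83), Syndig1 (1.58), Cda (1.58) and Msmp (1.53) were more positive in PaS cells. Among the decreases, the difference was -1.67 for the mast cell protease gene Cpa3, -1.63 for Alox15, -1.62 for Il1rl1, -1.55 for Stfa2l1, -1.30 for Cxcr2 and -1.19 for Ccr1. The neutrophil genes Ifitm6, Ltf, Chil3 and Lcn2 had differences of -1.13, -1.08, -1.02 and -0.99. These 4 genes also fell in CAR cells, by less, with log2 fold changes of -0.97, -0.84, -1.06 and -0.94. Of 19 tested neutrophil genes 17 were called lower in ko CAR cells (median -1.06), against 742 of all 12378 tested genes. The differences of Cda, Syndig1, Timd4, Cbr2, Cxcr2 and Stfa2l1 did not pass with a pseudocount of 0.1 (adjusted p = 0.13, 0.22, 0.13, 0.11, 0.065 and 0.055), and those of Cbr2, Cxcr2, Stfa2l1 and Ifitm6 did not pass with no filter on low values (0.12, 0.1, 0.16 and 0.12). Without 1 library, Cbr2 did not pass for the second wt or the first ko replicate (0.064 and 0.065), Cxcr2 for the second wt or the second ko replicate (0.067 and 0.066), Ifitm6 for the second or the third ko replicate (0.059 and 0.054), and Stfa2l1 for the first wt, the third wt, the second ko or the third ko replicate (0.078, 0.084, 0.092 and 0.083). Groups of 3 libraries were not tested for outlying samples.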

How the results depend on the processing

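The count of called genes stayed between 779 and 1088 over 17 alternatives, against 997, and the counts of rises and of falls stayed within 1.5 times their values in each of them. The count of genes that differ from CAR cells did so in each alternative that includes CAR libraries. The lowest count of PaS calls came without the third ko replicate and the highest with a pseudocount of 5. Leaving out 1 PaS library at a time gave 779 to 872 calls. Genes called over 2-fold numbered 218, but 79 with a pseudocount of 5, which shrinks the fold of low genes by construction. Of 305 called genes followed by name, 220 kept their call under every alternative that could be computed and 85 lost it under at least 1 of them, and 21 others gained a call. With zeros kept as deposited, Gsn gave a log2 change of 4.04 (adjusted p = 0.38), the opposite direction, because its listed zero then entered the fit. The main fit took no pairing by replicate number. The deviations of same-numbered wt and ko libraries correlated weakly over genes, at 0.0382, 0.0427 and 0.0191, and those of differently numbered libraries at -0.0358 to -0.00164. Every library correlated best with its own number, a hint from the data and not from the design, and the fit with a replicate block called 1003 genes. The smallest list counts moved most, such as the Wnt antagonists called lower (2, and 0 without the first wt, the second wt, the first ko or the third ko replicate), TGF-beta genes called higher (2, and 0 without the third wt, the first ko or the third ko replicate) and PDGF and VEGF genes called higher (3, and 1 without the first wt replicate). The depth of the libraries is not given in the sources used here, so no counting error was computed, and genes near 1 FPKM are the least certain.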

Other observations

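Genes of the circadian clock differed between the groups. Of 17 tested genes 4 were called lower in ko PaS cells and 0 higher, with a median log2 fold change of -0.11. Dbp, an output gene of the clock, was at 12.6, 16.9 and 15.03 FPKM in the wt libraries and 3.92, 3.56 and 3.36 FPKM in the ko libraries, and Nr1d1 (REV-ERBα), a repressor in the clock's second loop, at 16.4, 18.01 and 20.3 FPKM in the wt libraries and 7.72, 4.71 and 5.11 FPKM in the ko libraries. Both fell without overlap (log2 fold changes -1.77 and -1.51, adjusted p = 4.7e-07 and 6.3e-06). Per3 fell from 3.54, 4.29 and 3.59 FPKM to 1.68, 1.28 and 2.19 FPKM and Nr1d2 from 13.5, 11.1 and 11.7 FPKM to 8.54, 4.72 and 7.06 FPKM (adjusted p = 0.0047 and 0.0074). The differences between PaS and CAR effects were not called for Dbp (0.48, adjusted p = 0.2) or Nr1d1 (-0.04, adjusted p = 0.95). The labels used here give no collection times.

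Carbonic anhydrases, which interconvert carbon dioxide and bicarbonate, rose in 4 of 9 tested cases, among them Car4, which passed the filter only through the ko libraries. They fell in 1, Car8, a fall that did not pass without the first wt replicate (adjusted p = 0.06). Car3, a form abundant in muscle and fat, was at 9.10, 11.9 and 11.8 FPKM in the wt libraries and 26.8, 31.4 and 28.8 FPKM in the ko libraries, higher in every ko library (log2 change 1.34 with SE 0.09, adjusted p = 5.1e-08). Car2, found in many cell types including red cells, was at 143, 149 and 143 FPKM in the wt libraries and 269, 284 and 279.9 FPKM in the ko libraries and rose (log2 change 0.93 with SE 0.05, adjusted p = 1e-08). Of 13 tested genes of pericytes and smooth muscle 4 were called higher and 0 lower. Tagln (transgelin), an actin-binding protein, rose from 3.94, 3.47 and 4.24 FPKM to 8.46, 8.09 and 8.88 FPKM and Rgs5, a pericyte marker, from 4.05, 7.89 and 7.22 FPKM to 15.3, 16.2 and 12.8 FPKM (log2 fold changes 0.96 and 1.13, adjusted p = 0.0004 and 0.0056). Of 14 tested endothelial genes 2 fell. Tek (TIE2), a receptor of endothelial and some stromal cells, fell from 24.3, 20.1 and 18.6 FPKM to 6.57, 10.3 and 8.06 FPKM (log2 change -1.25 with SE 0.17, adjusted p = 9.4e-05), and Ramp2, a receptor partner for adrenomedullin, fell from 277, 279.7 and 279 FPKM to 195, 190.2 and 193 FPKM (log2 change -0.53 with SE 0.08, adjusted p = 0.00046).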
